A study of Mus musculus with 2 samples.

Results

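Arterial-leaning endothelial cells (ECs) of the cochlear stria vascularis (SV), the epithelium with its own capillary bed that keeps the endocochlear potential, were selected from the sorted cells of Tie2-GFP mice by a score over 9 genes, and 84 of 336 gated ECs were members. The series holds 834 cell barcodes in 2 libraries of single-cell RNA-seq (10x Genomics 3′ chemistry), of which 633 belong to the Tie2-GFP library and 201 to a library from the pericyte reporter NG2-DsRed, and the libraries shared 0 barcodes. The Tie2-GFP library pooled 20 cochleae of 10 mice aged 1 to 3 months, males and females together, whose GFP is driven by the promoter of Tek (Tie2), the angiopoietin receptor of ECs. These mice carried the reporter transgene in an inbred colony and no treatment is named. Because all mice are in 1 library, cells are not replicates, no test was made between groups of cells, and all 95% intervals cover counting error only.

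The gate kept 405 barcodes with at most 5% mitochondrial unique molecular identifiers (UMIs), of which 372 had UMIs of at least 4 of the 6 endothelial genes Pecam1, Cdh5, Cldn5, Flt1, Egfl7 and Ramp2, and 336 of these had at most 1 of the 6 mural genes Rgs5, Pdgfrb, Vtn, Notch3, Kcnj8 and Abcc9. The score was the natural log of 1 plus the UMIs of Gja4, Gja5, Bmx, Sema3g, Vegfc and Hey1 per 10000, minus the same for Nr2f2, Slc38a5 and Vcam1. Cells at or above the 75th percentile, a score of 1.50, were members. Members and the other 252 gated cells were measured to a similar depth, with a median of 7112 UMIs and 2527 genes in members and 7264.5 UMIs and 2596 genes in the others. Summed over cells, the groups held 714640 and 2098555 UMIs. Median mitochondrial UMIs were 1.86% and 1.69%, and ribosomal protein UMIs were 12.4% in both groups.

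Arteries, capillaries and veins are lined by ECs of distinct identity. Arterial identity is set by VEGF and Notch signaling together with flow, through SOX and HEY transcription factors, whereas COUP-TFII, encoded by Nr2f2, holds vein identity. Along the vascular tree these programs grade into each other through the capillary bed, and the SV is mostly capillary, fed by arterioles of the lateral wall.

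The values that chose the members are a description only. Bmx, a Tec family kinase of arterial endothelium, had UMIs in 84.5% of members and 41.3% of the others. Sema3g, a class 3 semaphorin, was found in 67.9% and 19.4%, and Gja4, which encodes connexin 37, in 29.8% and 4.37%. Vegfc, a lymphangiogenic growth factor, was found in 25% and 3.97%, and Hey1, a Notch target, in 25% and 6.35%. Gja5, which encodes connexin 40 and is a defining arterial gene, had 1 UMI in members and 1 in the others, so the selection rested on the remaining 5 arterial genes, and on Bmx above all. As a background, 143 barcodes were taken that carried at least 3 intermediate or 3 marginal cell markers and at most 1 endothelial gate gene. Among them Bmx was found in 0.699%, Gja4, Sema3g and Hey1 had 0 UMIs, and Vegfc was found in 18.9% at a median of 12226 UMIs. Of the venous genes, Slc38a5, an amino acid transporter, had 0 UMIs in members and 124 in the others, and in members 3 counts, the floor set here for a count of 0, would be 4.20 CPM (summed UMIs scaled to a total of 1000000), while the exact Poisson upper limit is 5.16.

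The boundary was not a gap in the score. The 3 members nearest to it held 2 arterial UMIs among 5627 to 5705 UMIs, and the 3 nearest cells outside held 2 among 5762 to 5899. Of the members, 6 held 1 arterial UMI in all, 9 held 2 and 69 held 3 or more. UMIs of an arterial score gene were also present in 137 of the other cells, 78 of which had a venous UMI as well.

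**Figure D1:**
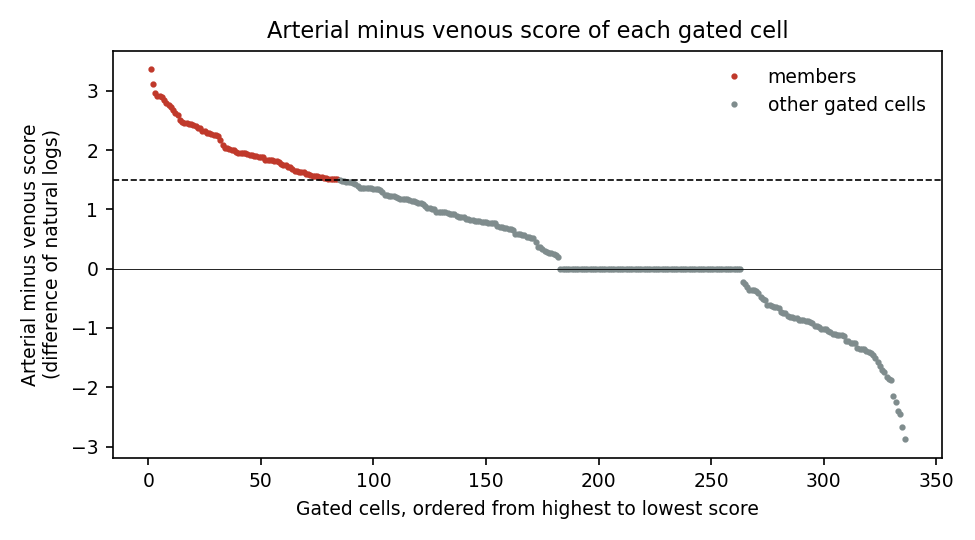
Score of each of the 336 gated cells (natural log difference, vertical axis) against its rank from highest to lowest, with the 84 members in red and the other cells in grey. The dashed line is the 75th percentile at 1.50, and the scores run through it without a break.

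Across 4141 genes outside the rule, 177 (4.27%) were at least 1.5-fold higher in members and 211 (5.1%) at least 1.5-fold lower. Genes counted here had at least 100 UMIs in the gated cells and UMIs in at least 10% of the members or of the others, and 0.5 UMIs were added to both sums for the log2 ratio. Since the members were chosen on the same cells, these counts describe the division and do not test it. The median log2 ratio was 0.01. Differences of at least 2-fold were seen for 37 higher and 51 lower genes, and of at least 4-fold for 6 and 4. Levels are given as CPM, with exact Poisson intervals, and ratios have exact conditional binomial intervals. The 15 highest and 15 lowest genes described next were taken among genes with UMIs in at least 25% of the cells of the higher group and at most 20% of their UMIs in 1 cell. Genes outside these limits, such as the chemokine gene Cxcl10 with a log2 ratio of -1.73, are therefore not among them. Of the genes described next, Nebl, Serpina1b and St3gal5 had UMIs in 10% of cells only in the group where they were higher.

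Slc6a6, Glul and Alpl, all on the arterial list below, were among the leading genes. Slc6a6, the taurine transporter (chr6:91684053-91759066, GRCm38), reached 1501 CPM in members (1413 to 1594) and 289 in the others (267 to 313), a log2 ratio of 2.38 (2.23 to 2.52). UMIs of Slc6a6 were present in 69.0% of members and 27.0% of the others, and in 64.4% and 22.3% after each cell was thinned to 3282 UMIs. Glul, glutamine synthetase, stood at 1941 CPM (1840 to 2046) and 624 (590 to 658), a log2 ratio of 1.64 (1.53 to 1.75). Alpl, tissue-nonspecific alkaline phosphatase (chr4:137741733-137796384), stood at 120 CPM (96.3 to 149) and 17.2 (12 to 23.7), the highest log2 ratio of the 15, 2.80 (2.23 to 3.41). Both Slc6a6 and Alpl were thus several-fold higher in members, yet most members had no Alpl UMI, which was found in 35.7% of them and in 10.7% of the others.

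S100a6, a calcium-binding protein of the S100 family, stood at 500 CPM (449 to 554) in members and 85.3 (73.3 to 98.7) in the others. Nebl, which encodes the actin-binding protein nebulette, stood at 199 CPM (167 to 234) and 31.9 (24.7 to 40.5). Alox12, the arachidonate 12-lipoxygenase, stood at 93.8 CPM (72.7 to 119) and 19.5 (14.0 to 26.5). These intervals did not overlap between members and the other cells, but the genes were picked for their high ratios, so this is no test. Col18a1, the basement membrane collagen that gives rise to endostatin, stood at 105 CPM (82.5 to 132) and 19.1 (13.6 to 26.0), and the extracellular matrix gene Fbln2 at 130 (105 to 159) and 36.2 (28.5 to 45.3). Ptn, the growth factor pleiotrophin, stood at 600 CPM (545 to 660) and 181 (163 to 200). Plscr1, Pmp22, Cd24a, Serpina1b, Wfdc1 and Lap3 completed the 15 leading genes, with log2 ratios from 1.41 for Lap3 to 1.84 for Plscr1. Serpina1b belongs to a family of near-identical genes, so its UMIs are uncertain, and this holds in part for Plscr1. When cells were thinned and then scored again, the log2 ratio of Serpina1b was -0.27.

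Several of these genes also had UMIs in strial non-vascular cells, and the part of that RNA in the ratios was not tested. In the 143 background barcodes Glul was found in 76.9%, Ptn in 64.3%, Pmp22 in 53.8%, Fbln2 in 46.2%, Nebl in 44.1% and Alpl in 41.3%, whereas S100a6, Alox12 and Cd24a were each found in 0.699%, and Serpina1b and Wfdc1 in 0 barcodes, which allows a share of up to 2.10%. The intermediate cell list summed to 54.6 CPM (39 UMIs) in members, 70.0 in the others and 34645 in those barcodes, while 10.7% of members and 7.54% of the others had UMIs of 2 or more of its genes. The melanocytic genes Tyrp1, Tyr and Slc45a2 had 0 UMIs in members.

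Among the 15 lowest genes within these limits, Gpihbp1, the capillary anchor of lipoprotein lipase, stood at 53.2 CPM (37.6 to 73.0) in members and 158 (142 to 176) in the others. Abca1, a cholesterol exporter, stood at 67.2 CPM (49.5 to 89.1) and 180 (162 to 199), and Abcg1, another sterol exporter, at 21 (11.7 to 34.6) and 58.1 (48.3 to 69.4). Ch25h, cholesterol 25-hydroxylase, stood at 35.0 CPM (22.6 to 51.6) and 130 (115 to 146). For these 4 genes, picked for low ratios like the rest of the 15, the intervals of members and others did not overlap, which is no test. Slco2b1, an organic anion transporter, stood at 39.2 CPM (26.0 to 56.6) and 114 (99.9 to 129). Fmo2, a flavin monooxygenase, had the lowest ratio of the 15, at 16.8 CPM (8.68 to 29.3) against 85.8 (73.7 to 99.3), a log2 ratio of -2.30 (-3.33 to -1.51). Ccn2, a matricellular target of YAP, stood at 75.6 CPM (56.8 to 98.6) and 202 (183 to 222), and Spry1, an inhibitor of receptor tyrosine kinase signaling, at 99.4 (77.6 to 125) and 251 (230 to 274). St3gal5, Phpt1, Plxna4, Trp53i11, Ccnd1, Nbl1 and Net1 completed the 15 lowest, with log2 ratios between -2.16 for St3gal5 and -1.32 for Net1. In the background barcodes St3gal5 was found in 63.6%, at 260 CPM against 65.3 in the other gated cells, Abca1 in 53.1%, at 178 against 180, and Phpt1 in 49.0%, at 94.7 against 44.3. Abcg1 was found in 15.4% of them and each of the other 11 genes in at most 6.99%, and the part of that RNA in the ratios was not tested.

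**Figure D2:**
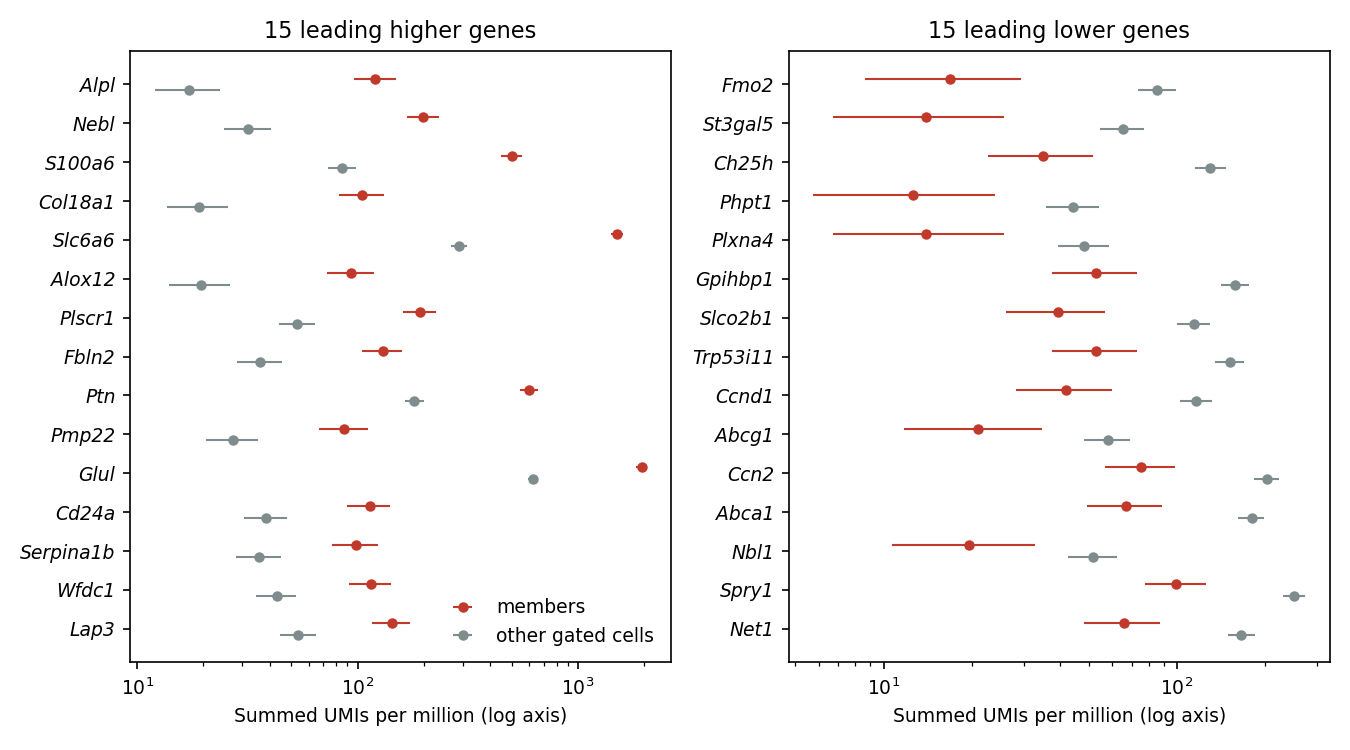
CPM (log axis) of the 15 leading higher genes (left) and the 15 leading lower genes (right) in the 84 members (red) and the 252 other gated cells (grey), with exact Poisson 95% intervals. Slc6a6 stands at 1501 in members and 289 in the others, and Fmo2 at 16.8 and 85.8.

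Promoters of genes that led with the members were read for short words known from vascular gene regulation, namely TGGGAA (the core of an RBPJ site), AACAAT (SOX) and GGGTGTG (KLF), each on either strand. RefSeq promoters of GRCm38.p6, 250 bases before to 50 after a start site, matched 12 of the 15 leading genes and 5 of the 6 arterial score genes. TGGGAA was present for 7 of the 12 (58.3%), for 2 of the 5 score genes, for 32.1% of the 134 matched genes at least 1.5-fold higher, for 31.4% of the 159 matched lower genes, for 25.2% of the 3344 matched among all genes counted and for 28.3% of all 27025 genes with a promoter (25.6% of 32851 promoter sequences). TGGGAA was also present for 3 of the 10 matched leading lower genes (30%) and 7 of the 24 matched genes of the arterial list (29.2%). The leading genes have 1.67 promoters each on average, the leading lower genes 1.4 and all genes 1.22, which raises the share with any match. AACAAT was present for 0 of the 12, for 7.30% of the matched genes counted and for 12.2% of all genes, and GGGTGTG for 2 of the 12, 9.63% and 9.05%. A match is a description of the letters and not a binding site. Shown are 2 score genes and 2 leading genes that hold TGGGAA or its reverse, with every match in capitals, 5′ to 3′ along the gene: Bmx at chrX:164258144-164258443 on the minus strand, Sema3g at chr14:31217623-31217922 on the plus strand, S100a6 at chr3:90612644-90612943 on the plus strand and Alox12 at chr11:70255321-70255620 on the minus strand. The promoter of Alox12 holds TGGGAA in both orientations and the KLF word.
Bmx: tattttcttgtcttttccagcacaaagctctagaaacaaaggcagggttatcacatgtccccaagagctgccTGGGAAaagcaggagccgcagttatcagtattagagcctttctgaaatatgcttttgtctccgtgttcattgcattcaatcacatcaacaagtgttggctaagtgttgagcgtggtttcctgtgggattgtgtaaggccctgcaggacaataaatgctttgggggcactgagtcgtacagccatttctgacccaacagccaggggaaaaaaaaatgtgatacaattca
Sema3g: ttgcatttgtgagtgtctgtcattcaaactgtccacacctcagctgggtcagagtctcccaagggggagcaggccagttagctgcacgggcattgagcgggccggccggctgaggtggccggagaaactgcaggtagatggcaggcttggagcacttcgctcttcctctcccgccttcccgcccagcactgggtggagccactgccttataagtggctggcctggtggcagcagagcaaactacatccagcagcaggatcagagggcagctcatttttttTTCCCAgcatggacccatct
S100a6: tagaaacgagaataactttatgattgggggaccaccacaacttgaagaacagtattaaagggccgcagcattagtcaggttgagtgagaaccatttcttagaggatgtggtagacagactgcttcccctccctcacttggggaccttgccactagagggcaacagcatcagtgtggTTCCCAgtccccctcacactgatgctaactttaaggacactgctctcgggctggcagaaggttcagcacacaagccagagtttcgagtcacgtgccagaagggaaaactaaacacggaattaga
Alox12: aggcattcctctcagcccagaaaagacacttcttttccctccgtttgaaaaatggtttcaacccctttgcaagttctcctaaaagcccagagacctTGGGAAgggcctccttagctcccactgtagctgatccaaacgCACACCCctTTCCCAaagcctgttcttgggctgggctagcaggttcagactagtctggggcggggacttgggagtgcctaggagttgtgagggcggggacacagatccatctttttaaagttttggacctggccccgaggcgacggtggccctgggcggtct

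Genes known from arterial ECs but not used in the score were higher in members for 14 of the 25 that could be counted. Of 34 genes on this list, 25 passed the limit on low counts, with 14 at least 1.5-fold higher, 2 lower and 9 between (4.27% and 5.1% of all genes counted were higher and lower), and a median log2 ratio of 0.60 against 0.01 over all genes counted. Next to Slc6a6, Alpl, Glul and Fbln2, the Notch ligand Jag1 stood at 104 CPM in members and 49.1 in the others, Jag2 at 127 and 84.8, and the chemokine Cxcl12, a ligand of CXCR4, at 667 and 354. Clu (clusterin) stood at 165 CPM and 57.7, Stmn2 at 78.4 and 25.3, the tetraspanin Cd9 at 539 and 266, Tgfb2 at 75.6 and 39.1 and the cell cycle inhibitor Cdkn1c at 108 and 71.5. Stmn2 had UMIs in 19.0% of members and 5.16% of the others, so it was counted only through the group where it was higher. Efnb2 (ephrin B2) had a log2 ratio of 0.40 (0.09 to 0.69), the transcription factor Sox17 one of 0.35 (0.18 to 0.52) and the Notch ligand Dll4 one of -0.10 (-0.53 to 0.29). Igfbp3 and Depp1 were lower, at log2 ratios of -0.62 for both. Genes near the threshold moved across it with the choices made: of 30 alternatives, Jag2 was under 1.5-fold in 14, Mgp in 9, Cdkn1c in 7, Igfbp3 in 9 and Depp1 in 15. Among these 30 alternatives, 1 left out 46 gated cells with UMIs of 2 or more markers of a non-vascular cell type. The boundary was then taken again, which gave 73 members, 69 of them among the 84. The count went from 14 to 7 of 23, with a median of 0.37. Jag1, Jag2, Cxcl12, Mgp and Clu were then under 1.5-fold, whereas Alpl and Stmn2 were past it but under the limit on low counts, so that 9 of the 25 were past it without the limit. When cells were thinned and then scored again, which gave 118 members, 68 of them among the 84, 15 of the genes passed the limit and 4 of these were past 1.5-fold, while 8 of the 25 were past it without the limit. The log2 ratios of Mgp and Cdkn1c, 2 of the 14, were then -0.54 and -0.11.

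Of 25 genes known from veins, 13 passed the limit, and 5 of these were at least 1.5-fold lower, 1 was higher and 7 lay between, where 5.1% of all genes were lower and 4.27% higher. The median log2 ratio of the 13 was -0.48. Vwf, von Willebrand factor, stood at 109 CPM in members and 241 in the others, Plvap, the diaphragm protein of fenestrated endothelium, at 39.2 and 62.9, and Icam1, a leukocyte adhesion molecule, at 176 and 268. Tmsb10, a thymosin that binds actin monomers, stood at 2225 CPM and 3500.5, and Ch25h, given above, was the fifth. Icam1 was under 1.5-fold in 8 of the 30 alternatives, Plvap and Tmsb10 in 5 each, and Vwf in 1, a score of the arterial term alone. Among genes too low for the count, Lcn2 had 0 UMIs in members and 58 in the others, at least 6.58-fold lower, and Aplnr, the apelin receptor, had 0 and 42, at least 4.77-fold lower, both against the level that 3 counts would give in members. Lrg1, a leucine-rich glycoprotein of TGF-β signaling, was higher, at 137 CPM in members and 67.7 in the others. Below 1.5-fold, Ephb4, the receptor of ephrin B2, had a log2 ratio of 0.20 (-0.30 to 0.66), Tmem252 one of 0.14 (0.04 to 0.24), and Csrp2 and Ctsc one of -0.12 each.

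Of 20 capillary genes, 13 passed the limit, with 2 higher and 5 lower (4.27% and 5.1% over all genes) and a median log2 ratio of -0.14. Spock2, a proteoglycan, stood at 1084 CPM and 584, and Rgcc at 455 and 265, both higher in members, whereas Gpihbp1, Trp53i11, Hmcn1, Ivns1abp and the amino acid transporter Slc7a5 were lower. Fewer cells of a zone and less RNA per cell cannot be told apart in summed levels.

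**Figure D3:**
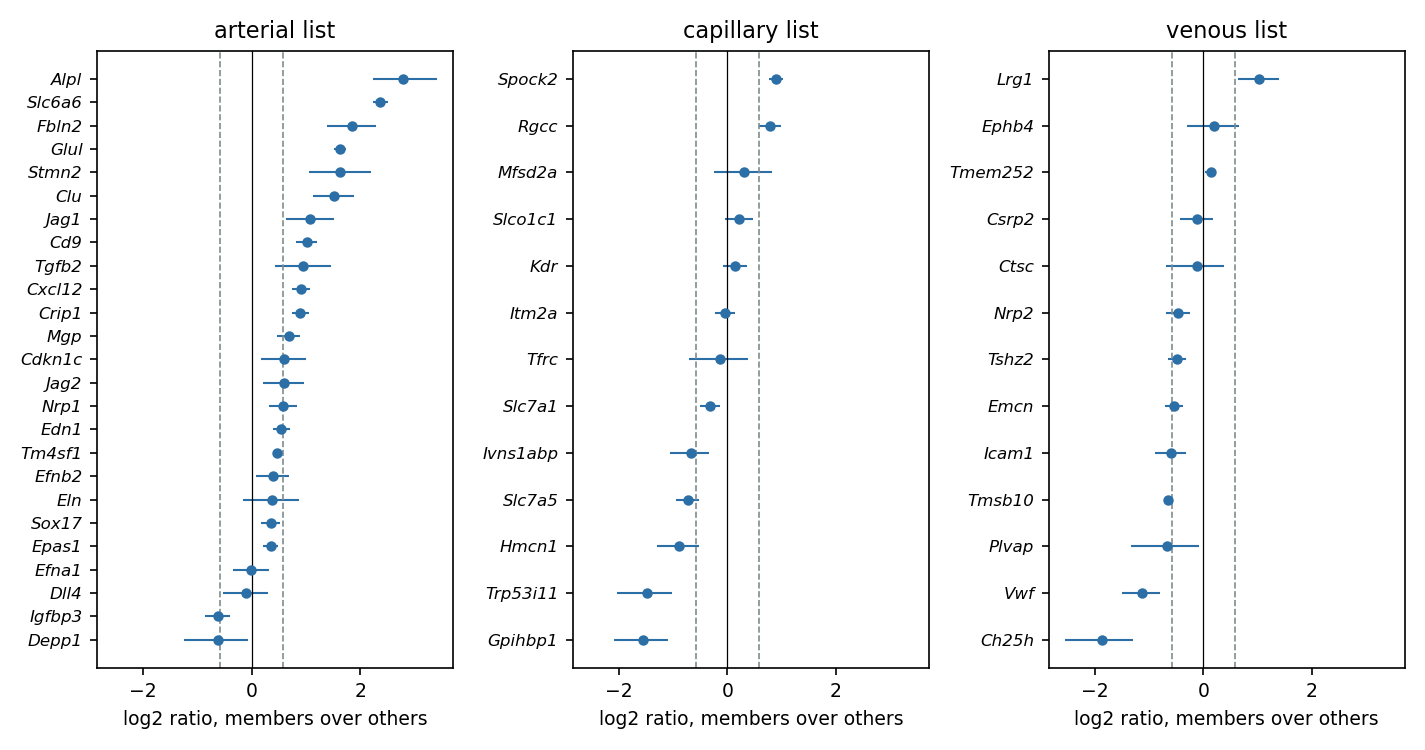
Log2 ratio of members over the other gated cells for each counted gene of the arterial (25 genes), capillary (13) and venous (13) lists, with exact conditional binomial 95% intervals and dashed lines at 1.5-fold. Alpl heads the arterial list at 2.80, and Ch25h closes the venous list at -1.87.

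Pathway lists are counted beside the 4.27% of all genes that were higher and the 5.1% that were lower. In the Notch list (14 counted) Jag1, Jag2 and the sheddase gene Adam17 were higher, where the calls of Jag1 and Jag2 ended under the alternatives given above, and the feedback regulator Nrarp lower, at 21 CPM and 42.9. In the list of flow-responsive genes (13) Nos3, endothelial nitric oxide synthase, was higher, at 108 CPM and 58.6, and Hmox1, heme oxygenase 1, lower, at 44.8 and 81.5. Of the BMP and TGF-β genes (15), Tgfb2 was higher and Bmp6 and the receptor Tgfbr1 lower. Of the semaphorin and ephrin genes (13), Sema3c was higher at 153 CPM and 57.7, Sema7a and Sema3f were higher, and Plxna4 and Robo4 were lower. The matrix list (21) had 5 higher genes, Col18a1, Fbln2, Egfl8, Agrn and Mgp, and 2 lower, Nid1 and Vwa1, where the call of Mgp ended under alternatives given above. In the list of VEGF and angiopoietin genes (10) Pdgfa was higher, at 79.8 CPM and 44.3, and the peptide hormone gene Adm lower, at 21 and 49.6. Procr, the endothelial protein C receptor, was higher, at 263 CPM and 127.

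Of 19 genes counted on a list of barrier transporters and associated proteins, Slc6a6 and Slc9a3r2 were higher. Slco2b1, Abca1, Atp1b1, Slc16a4 and Slc7a5 were lower, and the list had a median log2 ratio of -0.27. Of all genes, 4.27% were higher and 5.1% lower. Among the junction genes Jam3, a junctional adhesion molecule, was lower, at 37.8 CPM and 69.1. With the same shares over all genes, of 16 genes of the Wnt pathway that maintains the blood-brain barrier, Reck and Tcf7l1 were lower. Gja1, which encodes connexin 43, was lower in members, at 239 CPM and 380. No gene of the lists of endothelial transcription factors (18), immediate-early genes (21) or glycolysis (13) was past 1.5-fold, and the immediate-early genes, which tissue dissociation induces, summed to 35076 CPM in members and 39351 in the others. Of 21 MHC and interferon genes, Ifit1, Ly6a and Tap1 were higher and 0 lower.

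Levels were also compared along the score. Slc6a6 stood at 130 CPM in the 154 cells with a score at or below 0, at 509 in the 98 cells between 0 and the boundary, and at 1501 in members. Alpl stood at 9.03, 28.4 and 120 CPM in the same classes, and S100a6 at 56.6, 125 and 500. Spry1 stood at 244, 261 and 99.4 CPM, so its middle class did not lie between the other two. The middle class held 12 cells with UMIs of 3 or more arterial score genes, which carried 235 of its 448 Slc6a6 UMIs, 83 of its 110 S100a6 UMIs and 13 of its 25 Alpl UMIs. In the other 86 cells of the class Slc6a6 stood at 287 CPM (250 to 328), Alpl at 16.2 (8.35 to 28.2) and S100a6 at 36.4 (24.0 to 52.9). In the lowest class S100a6 stood at 56.6 CPM (44.1 to 71.7), with overlap of the intervals. That class joined S100a6 at 19.8 CPM in cells below 0 with 99.9 in cells at 0.

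**Figure D4:**
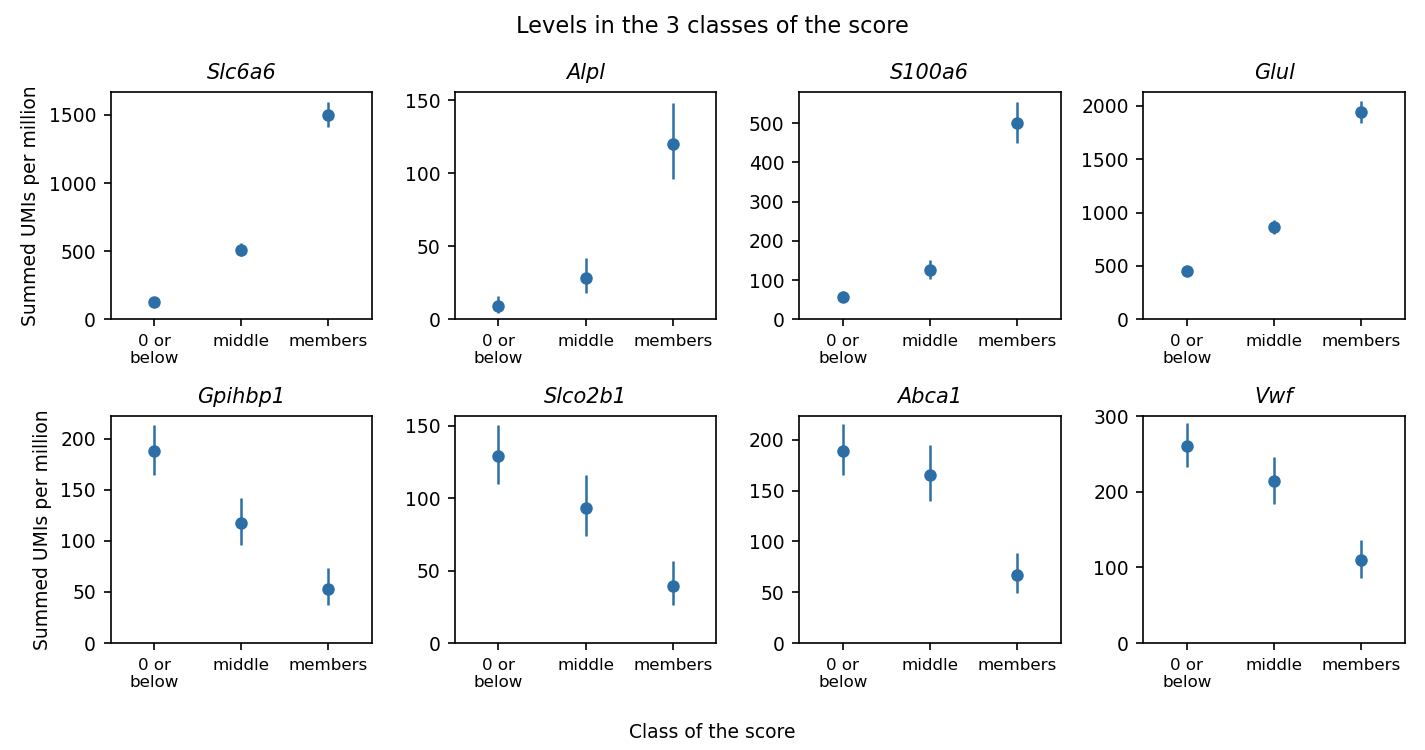
CPM of 8 genes in the 154 cells with a score at or below 0, the 98 cells between 0 and the boundary, and the 84 members, with exact Poisson 95% intervals and axes from 0. Slc6a6 steps from 130 to 509 to 1501, with 12 cells carrying 235 of the 448 UMIs of the middle class, and Gpihbp1 steps down from 188 to 117 to 53.2. The 188 joins 255 CPM in cells with a score below 0 and 109 in cells at 0.

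Members differed widely among themselves. UMIs of 1 arterial score gene were found in 19 members, of 2 in 32 and of 3 or more in 33, with medians of 5691, 6287.5 and 9689 UMIs, so depth rose with the number of genes. The 19 members with 1 gene, which was Bmx in 14 of them, had Slc6a6 at 289 CPM, the level of the other gated cells. Slc6a6 stood at 917 CPM in members with 2 genes and at 2229 in members with 3 or more, and S100a6 at 18.6, 257 and 795 in the 3 classes. Alpl had 0 UMIs in the members with 1 gene, where 3 counts would be 28.0 CPM and the exact Poisson upper limit is 34.4, above the 17.2 of the other gated cells, and stood at 54.7 and 197 CPM in the others. Some other leading genes were already above the other gated cells in members with 1 score gene, and some were below them. Nebl stood there at 102 CPM (51.2 to 183) against 31.9 (24.7 to 40.5), and Glul at 1006 (825 to 1215) against 624 (590 to 658), without overlap of the intervals, and Pmp22 at 74.5 (32.2 to 147) against 27.2 (20.6 to 35.2), with overlap. S100a6 was below, at 18.6 CPM (2.26 to 67.3) against 85.3 (73.3 to 98.7), without overlap. Plscr1 at 18.6 CPM against 53.4, Serpina1b at 9.32 against 35.7 and Fbln2 at 28.0 against 36.2 were also below, with overlap.

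Clu and Mgp were above the other gated cells only in members with 3 or more score genes. Clu stood at 9.32, 21 and 303 CPM in members with 1, 2 and 3 or more score genes and at 57.7 in the other cells, and Mgp, matrix Gla protein, at 46.6, 118 and 717 against 260. Mgp UMIs were present in 36.4% of the members with 3 or more score genes, in 26.2% of all members and in 34.5% of the other cells, so its level came from a minority of cells. In the 143 background barcodes Mgp was found in 37.1%, at 121 CPM, and Clu in 10.5%, at 386 CPM, and the part of that RNA in these levels was not tested. In the 33 members with 3 or more score genes Ccn2 and Fmo2 had 0 UMIs, at least 24.9-fold and 10.6-fold below the other gated cells against the level of 3 counts, and Gpihbp1 stood at 13.5 CPM. Members with 1 and 2 score genes had Ccn2 at 121 and 173 CPM, against 202 in the other gated cells. With 1 score gene Spry1 stood at 382 CPM (274.1 to 518), above the 251 (230 to 273.5) of the other cells. Abca1 stood there at 205 (128 to 310) against 180 (162 to 199), with overlap. Of the 25 arterial list genes, 4 were at least 1.5-fold above the other cells in members with 1 score gene, 9 with 2 and 19 with 3 or more, where 13.2%, 7.73% and 8.72% of all genes counted were, and 6, 3 and 1 were at least 1.5-fold below, where 15.8%, 9.47% and 10.6% were.

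**Figure D5:**
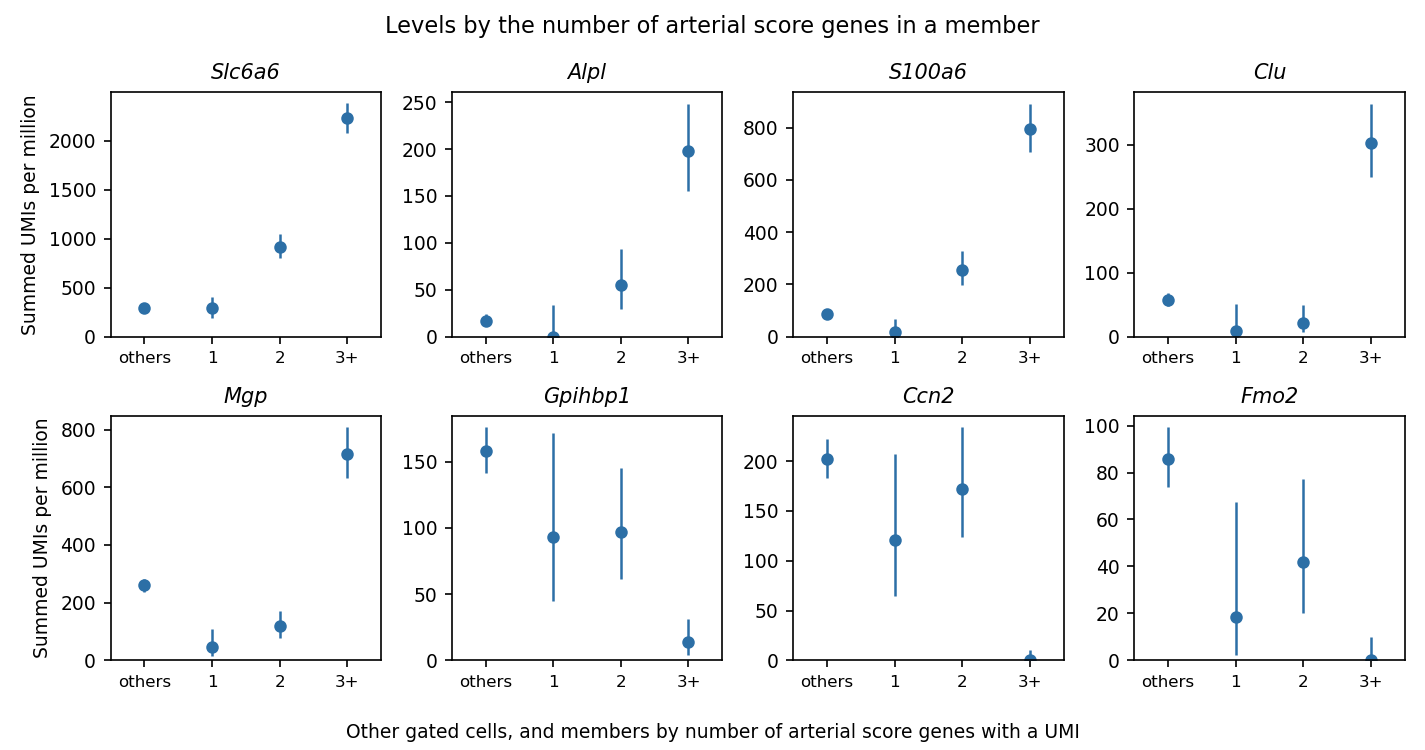
CPM of 8 genes in the 252 other gated cells and in members with UMIs of 1 (19 cells), 2 (32) and 3 or more (33) arterial score genes, with exact Poisson 95% intervals and axes from 0. Clu and Mgp are high only in the last class, at 303 and 717, where Ccn2 and Fmo2 are at 0.

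Arterial score genes were also found outside the members. Of the other gated cells, 13 held UMIs of 3 or more arterial score genes, 12 of them with a venous UMI, which was Vcam1 in 10. Slc6a6 stood at 1619 CPM (1419 to 1840) in these 13 cells, S100a6 at 590, Mgp at 1585 and Clu at 556, against 190, 47.6, 161 and 20.5 in the remaining others. Vcam1, an adhesion molecule counted as venous by the score, had UMIs in 21 gated cells, 3 of them members, and the 13 cells held 95 of its 124 UMIs. In the cells with a Vcam1 UMI, 15 of the 25 arterial list genes were at least 1.5-fold higher than in cells without, where 9.06% of all genes were. In the 64 cells with a Slc38a5 UMI 0 of the 25 were, where 2.87% of all genes were, and in the 84 with a Nr2f2 UMI 1 was, where 2.00% were. The median log2 ratio of the list, cells with over cells without, was 0.84 for Vcam1, -0.84 for Slc38a5 and -0.67 for Nr2f2, against medians over all genes of -0.03, -0.0042 and -0.0067. Slc6a6 had log2 ratios of 1.32, -3.87 and -1.996 in the same order. The median over the venous list was -0.25, 0.16 and 0.24, whereas Vwf, a gene of that list, had log2 ratios of 0.68, 0.53 and 0.85. Of the 21 cells with a Vcam1 UMI, 14 held UMIs of 2 or more arterial score genes.

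Markers of other cells were measured beside the results. The contractile mural list, which marks the smooth muscle of arterioles, summed to 7 CPM in members and 10.5 in the others, with Acta2, Cnn1 and Myl9 at 0 in members. The mural gate genes summed to 58.8 CPM and 35.7, nearly all Rgs5, and the gate itself kept them low, since it allowed at most 1 per cell. Notch3 and Kcnj8 had 0 UMIs in both groups. Pdgfrb had 0 UMIs in members and 1 in the others, Abcc9 had 2 and 0, and Vtn had 1 and 0. The Schwann cell list summed to 98.0 CPM and 46.7, of which Pmp22 made 86.8 and 27.2, and Mbp, Prx and Sox10 were at 0 in members. Hemoglobin genes summed to 2317 CPM and 3973, and to 16.1 and 14.4 without 2 cells in which they exceeded 1% of the UMIs. Beside leaving out marked cells, given with the arterial list, the part of these RNAs in the results was not tested.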

How the data were processed

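Cells of the SV were released with collagenase IV and papain, sorted by fluorescence per the labels and captured on the 10x Genomics platform. The deposited values are raw UMI counts, 1 per gene and barcode, to which the authors applied no scaling. Cell Ranger 7.0.0 stands in the matrix header, and the submitters' processing notes list bcl2fastq 2.20.0.422 and mm10. The Tie2-GFP library held 5432289 UMIs. The methods of the study removed doublets with scDblFinder, and here doublets were not called.

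The members, gene lists and comparisons were chosen with earlier results of these data known. All values came from scipy 1.17.1, numpy 2.4.6 and pandas 2.3.3 (Python 3.11.15). The log2 ratios and their intervals were tested on simulated Poisson counts with the members fixed. The gate, the score, the choice of members, thinning and spread between cells beyond counting error were not simulated. Genes of the rule, mitochondrial and ribosomal protein genes were left out of the 4141 genes counted. Named genes were the 15 highest and 15 lowest by log2 ratio with at most 20% of their UMIs in 1 cell and UMIs in at least 25% of the cells of the higher group, all genes of the score and the arterial and venous lists, and up to 2 at each end of every other list. Predicted genes were not named. Genes of a list named beyond that rule because they were past 1.5-fold, the genes shown by number of score genes, the printed promoters, the 13 cells outside the score and the cells with a Vcam1 UMI were chosen after values were seen. Thinning to 3282 UMIs, the 10th percentile, kept 73 members and 229 others and is 1 random draw. Coordinates are from GENCODE M21, promoters from RefSeq. CPM intervals are exact Poisson and shares have exact Clopper-Pearson intervals. The NG2-DsRed library had 15 cells past the gate, under the 20 required, and was not used. Some genes of the lists are not reported here.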

Additional observations from a re-analysis of the deposited data

How the results depend on the processing

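Of 30 alternatives, 7 of them chosen after seeing the data, 4 (the score without Gja5 and the limits on UMIs) left members and ratios as they were. Of the other 26, 25 kept all 30 leading genes in their direction past 1.5-fold, and thinning before scoring, which made 118 members by ties at the boundary, kept 26 of the 30. Fewer of all called genes were kept: of the 177 higher and 211 lower, 52.5% and 55.9% without cells with 2 or more markers of a non-vascular type, 63.8% and 71.6% with cells weighted equally, 65.0% and 60.7% with the arterial term alone, and 13.6% and 10.9% after thinning, where fewer genes were counted. Thinning gave 51 higher and 52 lower genes of 1597 counted, with 4 arterial genes higher and 3 venous genes lower. A minimum of 50 UMIs gave 398 higher and 481 lower genes and 10 venous genes lower, 200 UMIs gave 73 and 77 with 9 arterial genes higher, and no minimum gave 2743 and 2510 with 13 venous genes lower. Without the 46 cells with 2 or more markers of a non-vascular type, 7 arterial genes were higher and 3 venous genes lower, whereas leaving out cells with intermediate, Schwann or erythroid markers alone, chosen after seeing the data, left 11, 12 and 13 arterial genes higher. The boundary was taken again each time, and 69, 75, 81 and 82 of the 84 members stayed members in these 4. The 80th percentile gave 8 venous genes lower, and a score without Bmx and Sema3g, added later and limited to cells with a score above 0 because its 75th percentile was 0, gave 65 members and 9 venous genes lower. Cells at or above the median depth, also added later, gave 42 members. The log2 ratio of Mgp reversed to -0.0199 without Gja4 in the score, to -0.54 after thinning and to -0.49 without the 5% deepest cells. Serpina1b reversed to -0.27 and Cdkn1c to -0.11 after thinning. The causes were not tested, except that fewer or more genes were counted under the limits on UMIs and after thinning. The ratios in the NG2-DsRed library were not run, since 15 of its cells passed the gate. No paired analysis was possible because there is 1 library and no test. For Gja5, with 2 UMIs in 336 cells, a difference was not detectable at this depth.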
